A study of Oryza sativa with 4 samples.

Results

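The miRNAs described here are miR169 and miR171 of the rice cultivar Pokkali, a salt-tolerant indica rice, chosen as every list entry whose miRBase ID was mir169, mir171 or mir479mir171. The rule found 48 of the 1292 entries of the 4 libraries, and these held 5 of the 783 distinct mature sequences listed and 15 hairpin loci. One mature sequence can be cut from several loci and is then listed once per locus with the same reads, so each distinct sequence was counted once in each library. Seedlings were raised hydroponically and were taken on day 9, when roots were given 1.5% NaCl for 9 h or none. The libraries were NaCl-treated shoot (TS), control shoot (CS), NaCl-treated root (TR) and control root (CR), with 1 small RNA library each. All 4 came from this cultivar. With 1 library per group there was no replicate spread, so every ratio compares 2 libraries. The 95% intervals are exact, cover counting error only, and treat PCR reads as independent molecules. The lists hold small RNAs only, so the tissue labels were not checked against marker mRNAs.

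In plants, miR169 guides the cleavage of mRNAs for NF-YA proteins, the subunit of the nuclear factor Y complex that recognises the CCAAT box. miR171 guides the cleavage of mRNAs for GRAS proteins of the HAIRY MERISTEM type (SCARECROW-LIKE in the older literature), which act in meristem maintenance and shoot branching. Both are cut from a hairpin precursor by a Dicer-like enzyme, which leaves a duplex of the mature strand and its partner from the opposite arm, the miRNA*. The mature strand is loaded into the silencing complex, and the miRNA* is usually lost.

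The 5 mature sequences are given here with bases 2 to 8, called the seed below, in capitals, so that their starts can be compared. The paper describes near-perfect pairing of plant miRNAs with their targets, so a different seed is not read here as a different target. They are written 5′ to 3′ with T for U, as deposited. The names state what sets them apart: miR169-20nt and miR169-21nt differ in length, miR171-multi matched 5 places in the genome and miR171-single matched 1.
miR169-20nt: tAGCCAAGgatgacttgcct
miR169-21nt: cAGCCAAGgatgacttgccgg
miR171-multi: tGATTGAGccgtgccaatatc
miR171-single: tTGAGCCGcgtcaatatctct
mir479mir171: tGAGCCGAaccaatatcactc

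The 2 miR169 sequences had the same seed. Aligned from their 5′ ends they shared 18 consecutive bases and differed as T1C and T20G, positions counted from the 5′ end of miR169-20nt, and miR169-21nt had 1 more base at its 3′ end. The 3 miR171 sequences had 3 different seeds because they started at different points of a common stretch. miR171-single started 3 bases further along than miR171-multi, and mir479mir171 started 4 bases further along. All 3 held the same 2 blocks of 7 bases, with 3 bases between them that differed. The blocks are in capitals below.
miR171-multi: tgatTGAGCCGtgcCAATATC
miR171-single: tTGAGCCGcgtCAATATCtct
mir479mir171: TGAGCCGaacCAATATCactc
Over their overlap with miR171-multi, counted from its 5′ end, miR171-single differed as T12C and C14T and mir479mir171 as T12A and G13A, so the differences lay between the blocks.

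The reads used for miRNA prediction numbered 9765004 in TS, 13116913 in CS, 12126876 in TR and 6887961 in CR, so 1 read was worth 0.0762 to 0.145 RPM, reads per 1000000 reads used. The lists held 122 to 353 distinct sequences per library, 26 to 39 of them conserved, that is, with a miRBase ID, and the fewest reads listed was 2. For a sequence missing from a list, no count and no fold was assumed, except that it added no reads to a family sum. The members took 1.87% of the listed reads in TS (1.72 to 2.03), against 0.191% in CS (0.158 to 0.229). They took 0.198% in TR (0.156 to 0.246) and 0.174% in CR (0.132 to 0.225). The share in TS was above the intervals of the other 3 libraries. The listed reads numbered 30915 in TS and 60792 in CS. A share therefore also moves with the other listed sequences, which its interval does not cover.

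miR169-20nt, the main form of its family in these lists, had 348 reads in TS and 56 in CS, and 21 in TR and 11 in CR. These were 35.6 RPM in TS, 4.27 in CS, 1.73 in TR and 1.60 in CR. The intervals of TR (1.07 to 2.65) and CR (0.797 to 2.86) overlapped, and both lay below those of CS (3.22 to 5.54) and TS (31.99 to 39.6). Among conserved sequences it ranked 9 of 39 in TS, 14 of 37 in CS, 19 of 26 in TR and 19 of 31 in CR.

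miR171-multi, the form shared by 5 loci, had 176 reads in TS, 45 in CS, 58 in TR and 15 in CR. In RPM these were 18.02 in TS, 3.43 in CS, 4.78 in TR and 2.18 in CR. TS was again above the rest, while the intervals of CS (2.502 to 4.59) and TR (3.63 to 6.18) overlapped each other, as did those of CS and CR (1.22 to 3.59). It ranked 13 of 39 conserved sequences in TS and 18 of 31 in CR.

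Each of the other 3 sequences was listed in 1 tissue. miR171-single had 43 reads (4.40 RPM) in TS and 11 (0.839 RPM) in CS. miR169-21nt had 11 reads (1.13 RPM) in TS and 4 (0.305 RPM) in CS. Neither was listed in root. mir479mir171, whose deposited ID joins the names of miR479 and miR171, was listed in CR alone, with 32 reads or 4.65 RPM (3.18 to 6.56). That was more than the 15 reads of miR171-multi in the same library.

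**Figure D1:**
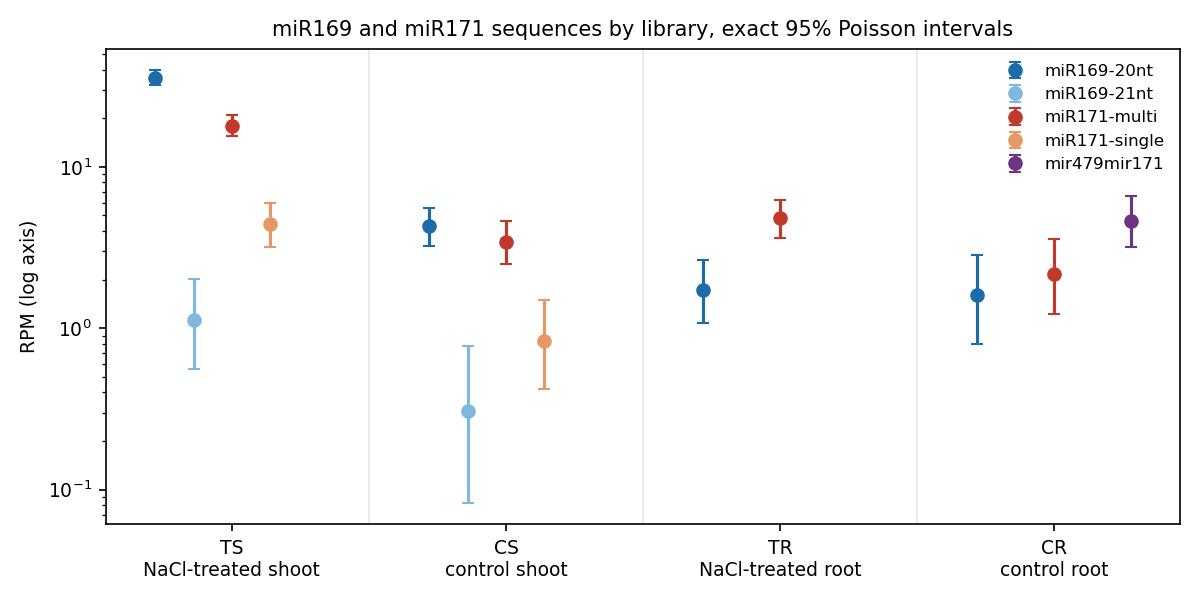
RPM of each miR169 and miR171 sequence (log axis) in the 4 libraries, with exact 95% Poisson intervals. Points are single libraries, and a missing point is a sequence not listed there. All 4 sequences of TS sit above their CS points, and mir479mir171 appears in CR alone at 4.65 RPM.

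The comparison of NaCl-treated with control shoot asked which sequences differed after 9 h of salt. All 4 sequences shared by TS and CS were higher in TS. miR169-20nt was 8.35-fold higher (6.28 to 11.3), miR171-multi 5.25-fold (3.77 to 7.46) and miR171-single 5.25-fold (2.66 to 11.3). miR169-21nt was 3.69-fold higher on 11 against 4 reads, with an interval of 1.09 to 15.9. The call rule required a 2-fold or larger difference in RPM in either direction, together with an interval that excluded 1. All 4 members were called higher, beside 22.9% of the 96 shared sequences and 46.9% of the 32 conserved ones, counts that include the members. By ratio, miR169-20nt ranked 1, miR171-multi 2, miR171-single 3 and miR169-21nt 7 among the 32 conserved sequences. miR169-20nt ranked 3 of all 96. The members' median log2 ratio was 2.39, against 0.43 over all shared sequences and 0.96 over the conserved ones.

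The scaling of the libraries moved these values but not their direction. The median log2 ratio of all 96 sequences was 0.43 on the deposited RPM and ran from -0.09 with TMM factors to 0.98 when libraries were scaled to their listed reads. The split of calls moved with it, from 22 higher and 7 lower on RPM to 14 and 16 with TMM factors and 29 and 2 with listed reads. Over 6 other scalings miR169-20nt stayed 5.83 to 12.2-fold higher, miR171-multi 3.67 to 7.69-fold and miR171-single 3.67 to 7.69-fold, and all 3 were called in each. miR169-21nt was called in 2 of the 6, with ratios of 2.58 to 5.41.

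**Figure D2:**
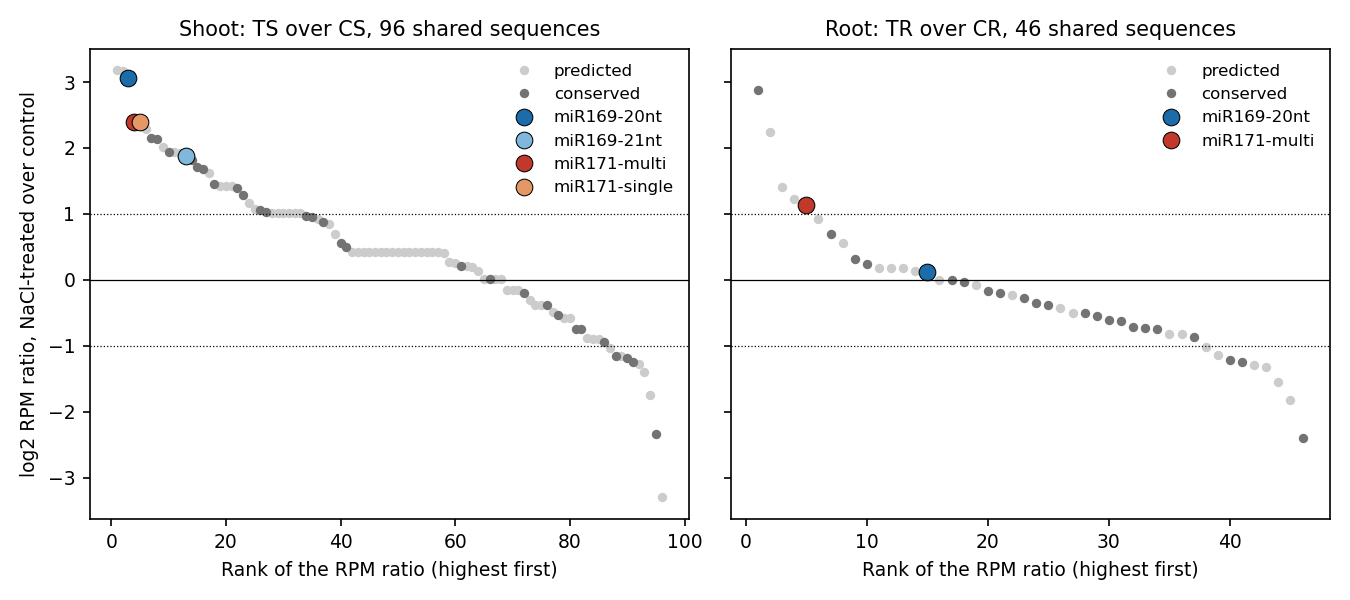
log2 RPM ratio of NaCl-treated over control for every sequence shared by the libraries of a tissue, ranked from the highest, in shoot (left) and root (right). Dotted lines mark ratios of 2 and 0.5. The 4 members in shoot lie in the upper end at ranks 3, 4, 5 and 13 of 96, while in root miR171-multi is at rank 5 and miR169-20nt at rank 15 of 46.

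In root the members parted. The TR to CR ratio of miR171-multi was 2.20 (1.23 to 4.17), a call, at rank 2 of 24 conserved sequences. miR169-20nt had 21 reads in TR and 11 in CR, a ratio of 1.08 (0.4998 to 2.49), and was not called. A change of the size seen for miR171-multi lay inside that interval. Of the 2 members shared in root, 1 was called higher, beside 10.9% of the 46 shared sequences and 8.33% of the 24 conserved ones. The median log2 ratio over all 46 was -0.32 on RPM and ran from 0.00 with the median of ratios to 0.42 with raw reads, and the calls went from 5 higher and 6 lower on RPM to 8 and 0 with raw reads. Over the 6 other scalings miR171-multi was 2.73 to 3.66-fold higher and called in each, and miR169-20nt was 1.35 to 1.81-fold higher and called in none. When the listed reads of the miR171 family were summed in each library, the root ratio turned to 0.70 (0.47 to 1.05), since the 32 reads of mir479mir171 were in CR alone. That value rests on which sequences were listed and labelled. An unlisted sequence added no reads to the sum. Relatives without a miRBase ID, described below, were left out. They had 25 and 7 reads in TR, and the first had 3 in CR.

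**Figure D3:**
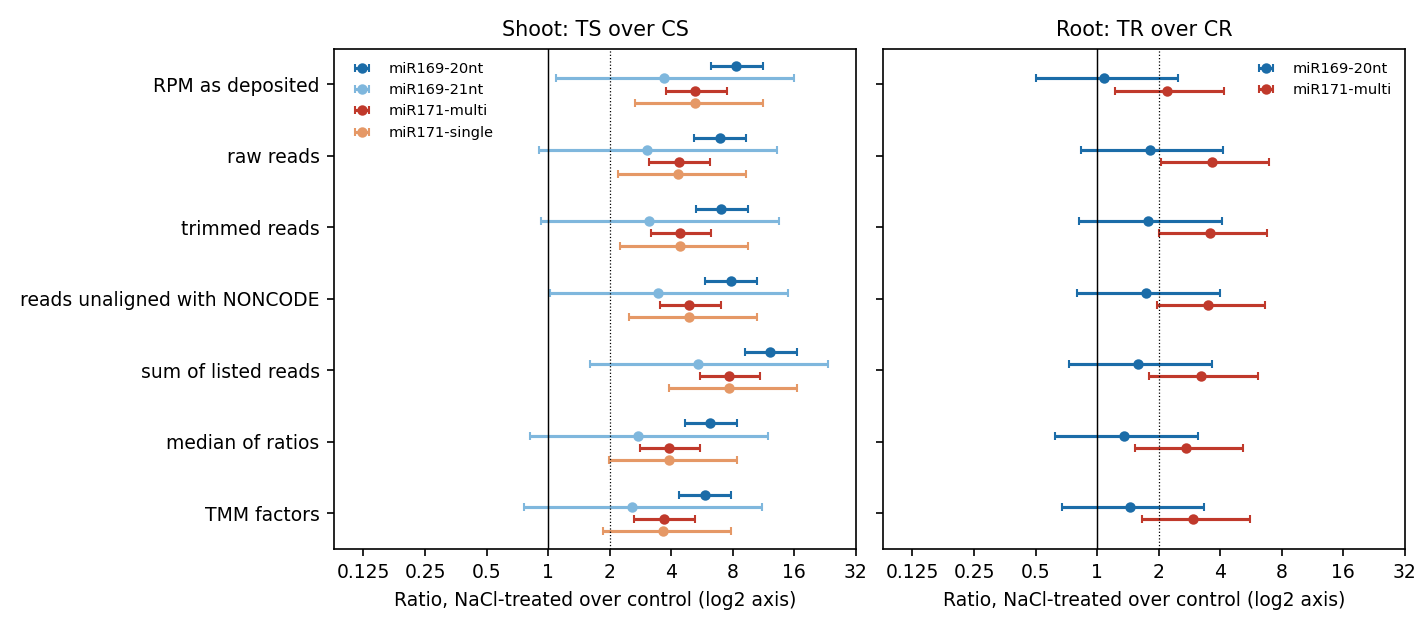
Ratio of NaCl-treated over control (log2 axis) for each shared member under the deposited RPM and 6 other scalings, with exact 95% intervals, in shoot (left) and root (right). The solid line marks 1 and the dotted line 2. miR169-20nt stays between 5.83 and 12.2 in shoot and between 1.08 and 1.81 in root.

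The NaCl-to-control ratio of miR169-20nt in shoot was 7.70 times that in root (3.16 to 17.7), and the interval excluded 1 under all 4 other scalings tried, with values of 3.82 to 7.70. For miR171-multi the shoot ratio was 2.39 times the root ratio (1.15 to 4.77). Scaled to raw reads, that value was 1.19 (0.57 to 2.37), and it was 1.24 with trimmed reads and 1.40 with reads unaligned with NONCODE, none of which excluded 1. A tissue difference in the miR171-multi ratio thus rested on the library total chosen, and that for miR169-20nt did not.

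Between tissues, miR169-20nt was higher in shoot under both conditions. TS was 20.6-fold above TR (13.3 to 33.7), and CS was 2.67-fold above CR (1.39 to 5.66). Over the 6 other scalings these ratios were 12.3 to 21.4 and 2.17 to 4.43, and each was called. miR171-multi was 3.77-fold higher in TS than in TR (2.79 to 5.16), and 2.26 to 3.93-fold over the other scalings, with a call in each. In CS it was 1.58-fold above CR (0.86 to 3.04) and was not called, although scaling to raw reads gave 2.61 (1.43 to 5.04) and a call. With the miR171 family's listed reads summed, CS stood at 0.63 of CR (0.42 to 0.94), again with no reads added for mir479mir171, which CS did not list. Of 2 members shared by TS and TR, 2 were called higher in shoot, beside 31.9% of the 47 shared sequences and 60% of the 20 conserved ones. Over those 47 sequences the calls were 15 higher and 8 lower on RPM and 11 and 9 with TMM factors. Of 2 members shared by CS and CR, 1 was called higher in shoot, beside 22% of the 50 shared and 30.4% of the 23 conserved sequences. Over those 50 the calls were 11 higher and 7 lower on RPM, 20 and 6 with raw reads, and 8 and 9 with TMM factors. These comparisons share libraries with those of NaCl, so they are not separate evidence of one another. In all, 10 ratios of members were computed over the 4 comparisons, with no adjustment for their number.

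The scaling cancels when 2 members are compared inside a library. In TS there were 348 reads of miR169-20nt to 176 of miR171-multi, a ratio of 1.98 (1.64 to 2.38). In CS the ratio was 1.24 (0.83 to 1.89), in TR 0.36 (0.21 to 0.61) and in CR 0.73 (0.30 to 1.71). miR169-20nt outnumbered miR171-multi in TS, and miR171-multi outnumbered miR169-20nt in TR. The odds of miR169-20nt to miR171-multi were 5.46 times as high in TS as in TR (3.14 to 9.77) and 1.59 times as high in TS as in CS (1.004 to 2.501). In TR they were 0.49 of those in CR (0.18 to 1.40), an interval that includes 1. The 2 miR171 forms of the shoot kept nearly the same ratio, with 176 to 43 reads in TS and 45 to 11 in CS. Their odds ratio was 1.00, with an interval of 0.43 to 2.17. For miR169-20nt to miR169-21nt the ratio was 31.6 in TS and 14.0 in CS, with an odds ratio of 2.26 (0.51 to 7.95).

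Recorded reads of the miR169 miRNA* were higher in TS than in CS, as for the mature strand, but by a smaller ratio. Each distinct miRNA* sequence was counted once. The most read ones differed in a single base and are shown because they separate hairpins that share the same mature sequence.
miRNA* ending GCC: ggcagtctccttggctaGCC
miRNA* ending GTC: ggcagtctccttggctaGTC
The second differs from the first as C19T, counted from the 5′ end. The GCC form was held by 4 of the 7 miR169-20nt hairpins and the GTC form by 2. The remaining hairpin, at chr8:26817498-26817517, was deposited with 88 nt and ends before the bases that tell the forms apart. The lists recorded 10 miRNA* sequences of miR169-20nt in all.

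In total, miR169-20nt had 64 miRNA* reads in TS (6.55 RPM) and 31 in CS (2.36 RPM), and 5 in TR and 2 in CR. In shoot the miRNA* reads were 2.77-fold higher in TS (1.78 to 4.41), beside 8.35-fold for the mature strand. The miRNA* made up 15.5% of mature and miRNA* reads in TS (12.2 to 19.4), against 35.6% in CS (25.6 to 46.6). These miRNA* reads were summed over 7 sequences in each of the 2 libraries, while the mature count was of 1 exact sequence. Any mature reads with other ends were not counted. The odds of miRNA* to mature were 0.33 in TS relative to CS (0.19 to 0.58). Of 19 sequences with miRNA* reads in both shoot libraries, 1 had an interval wholly below 1 (5.26%), and it was miR169-20nt. Another 3 had intervals wholly above 1. In root, 5 and 2 reads gave shares of 19.2% in TR (6.55 to 39.4) and 15.4% in CR (1.92 to 45.4), which were not distinguishable at this depth. Summed over loci, so that a miRNA* held by several hairpins was counted for each, the shares were 38.4% in TS and 54.8% in CS.

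Counted as the exact 20-base sequence, the GCC form had 47 reads in TS and 14 in CS, a 4.51-fold ratio in RPM (2.44 to 8.87). The GTC form had 9 reads in TS and 7 in CS, a 1.73-fold ratio (0.57 to 5.46). The odds ratio between them, 2.61, had an interval of 0.68 to 9.51 that includes 1. The rest of the 64 miRNA* reads in TS and 31 in CS were of sequences with another start or end. All were recorded at hairpins that do not hold the GTC form. They are left out of these ratios, and a ratio for each type of hairpin was not computed. In TR, 4 of the 5 miRNA* reads were of the GTC form. Neither exact form was recorded in CR, where 2 other miRNA* sequences had 1 read each. The first was the GCC form with 1 more base at its 3′ end. The other was held only by hairpins that hold the GCC form.

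miR171 miRNA* reads were few. miR171-multi had 4 in TS and 4 in CS, or 2.22% (0.61 to 5.59) and 8.16% (2.27 to 19.6) of mature and miRNA* reads. miR171-single had 1 in TS and 1 in CS. The odds ratios of TS over CS were 0.26 for each, with intervals of 0.046 to 1.44 and 0.0032 to 21.9, and neither excluded 1. No miRNA* was recorded for miR171-multi in root, nor for miR169-21nt or mir479mir171. An empty miRNA* field was not read as absence, because the hairpin at chr8:26803159-26803178 holds the GTC form exactly and has none recorded.

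**Figure D4:**
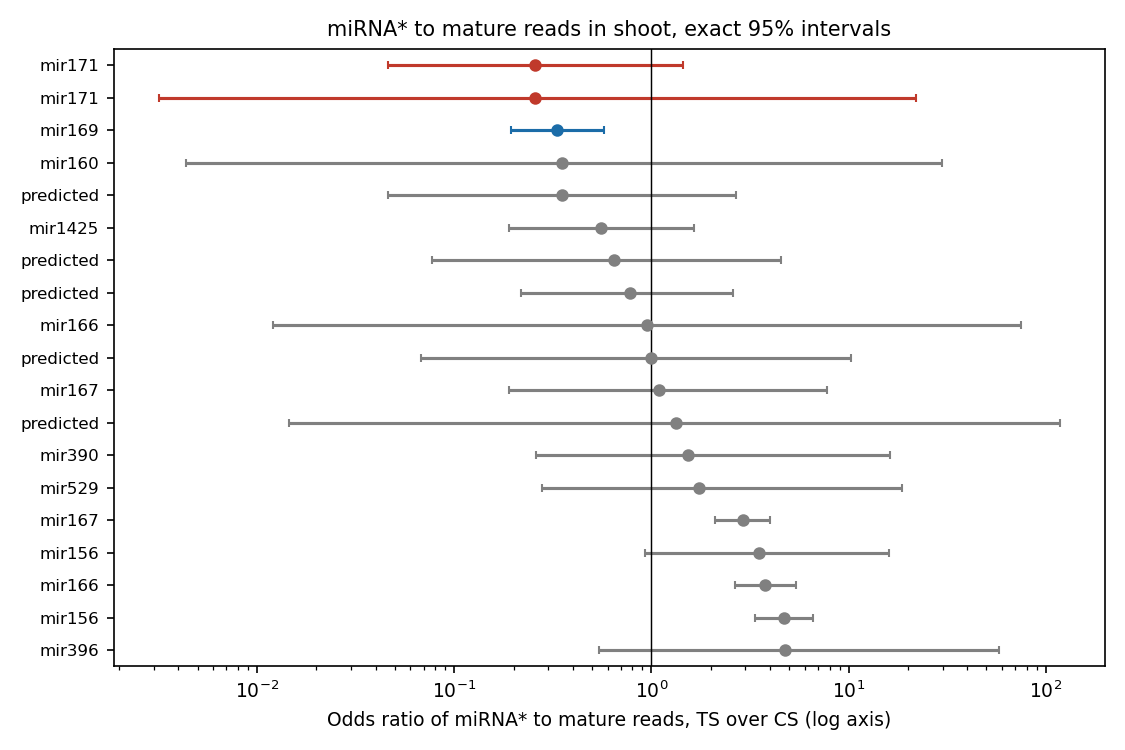
Odds ratio of miRNA* to mature reads, TS over CS (log axis), with exact 95% intervals for the 19 sequences with miRNA* reads in both libraries, named by family. miR169-20nt (blue) at 0.33 lies wholly below 1, the 2 miR171 sequences (red) at 0.26 have intervals that cross 1, and the grey points are other sequences.

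miR169-20nt had 8 genomic matches, and its reads cannot be assigned to any one of them. The lists gave 7 of these as loci, all on the plus strand of build IRGSP-1.0. Of them, 4 lay within 14.4 kb of chromosome 8, at chr8:26803159-26803178, chr8:26807359-26807378, chr8:26813907-26813926 and chr8:26817498-26817517. A further 2 lay within 3.29 kb of chromosome 9, at chr9:19788871-19788890 and chr9:19792143-19792162, and the last at chr4:19420087-19420106. These are the coordinates of the mature sequence. All 4 libraries listed 5 of the 7. The locus at chr8:26803159-26803178 was listed in TS and CS only, and the one on chromosome 4 was absent from the CS list. miR169-21nt lay at chr6:27296005-27296025 on the minus strand. No annotation of this build was used here, so genes around the loci are not given.

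Hairpins of miR169-20nt are shown for 3 loci, with the mature sequence and the miRNA* sequences they hold in capitals. They illustrate a locus with the GCC form, the locus where the GTC form was recorded, and the locus that holds the GTC form without a record.
chr8:26813907-26813926: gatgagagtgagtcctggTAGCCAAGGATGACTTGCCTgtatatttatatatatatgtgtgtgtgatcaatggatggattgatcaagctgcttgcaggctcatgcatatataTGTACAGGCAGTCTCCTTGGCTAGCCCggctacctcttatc
chr9:19792143-19792162: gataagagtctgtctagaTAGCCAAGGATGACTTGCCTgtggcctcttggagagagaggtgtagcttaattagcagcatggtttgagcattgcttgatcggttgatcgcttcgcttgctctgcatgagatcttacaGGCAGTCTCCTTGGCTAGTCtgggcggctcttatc
chr8:26803159-26803178: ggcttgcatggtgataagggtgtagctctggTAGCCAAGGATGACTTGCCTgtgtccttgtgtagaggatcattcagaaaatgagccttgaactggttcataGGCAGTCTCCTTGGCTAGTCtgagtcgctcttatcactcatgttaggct
In the deposited folds the mature sequence was in the 5′ arm of all 8 miR169 hairpins, with 2 unpaired bases in each miR169-20nt copy and 3 in miR169-21nt. Against the mature strand, the GCC form left a 3′ overhang of 2 bases in all 4 hairpins that hold it, and the mature strand left 1. Not every recorded miRNA* was placed this way. The one starting TGTACA in the chr8:26813907-26813926 hairpin, with 1 read in CS, gave -3 for itself and -11 for the mature strand. A negative value is a 3′ end that stops short of its partner.

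miR171-multi was listed at 5 loci, at chr3:1970575-1970595, chr3:30027870-30027890, chr8:5369222-5369242 and chr10:21237417-21237437 on the plus strand and chr4:31713482-31713502 on the minus strand. The locus at chr3:30027870-30027890 was listed in TS and CS and not in root, and it carried nearly all miRNA* reads of this sequence, 3 of 4 in TS and 4 of 4 in CS. It was also the hairpin in which no mature base was unpaired. The 3′ overhangs of its miRNA* and mature strand were -1 and -1. miR171-single lay at chr3:21191693-21191713 and mir479mir171 at chr4:28482510-28482530, both on the plus strand. All 7 miR171 hairpins had the mature sequence in the 3′ arm, opposite to miR169. The hairpins of the locus listed in shoot only and of miR171-single are shown with mature and recorded miRNA* in capitals.
chr3:30027870-30027890: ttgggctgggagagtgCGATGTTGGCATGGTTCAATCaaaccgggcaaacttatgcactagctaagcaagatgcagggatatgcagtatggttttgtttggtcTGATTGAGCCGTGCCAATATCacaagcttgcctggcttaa
chr3:21191693-21191713: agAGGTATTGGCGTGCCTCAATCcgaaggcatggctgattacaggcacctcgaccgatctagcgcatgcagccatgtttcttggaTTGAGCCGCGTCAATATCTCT

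**Figure D5:**
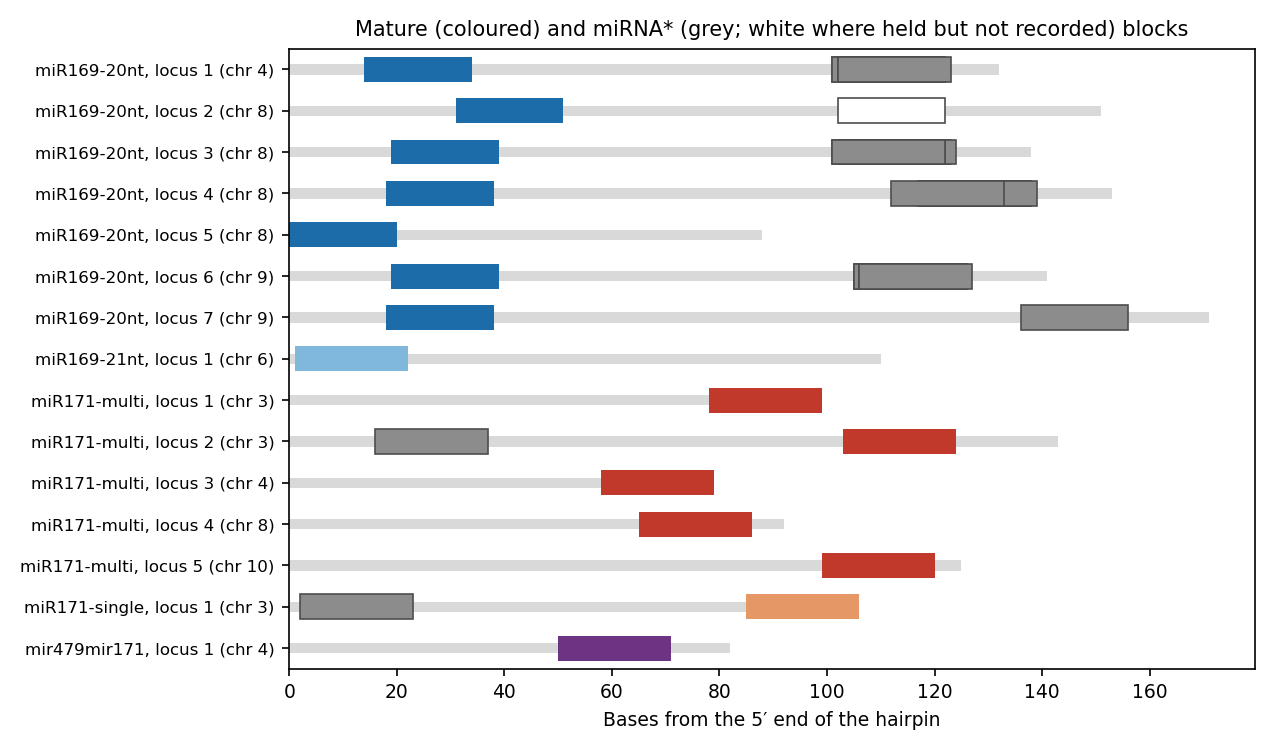
Position of the mature sequence (coloured) and of miRNA* sequences (grey where recorded, white where held but not recorded) in each of the 15 hairpins, in bases from the hairpin's 5′ end. miR169 matures sit in the 5′ arm and miR171 matures in the 3′ arm. miRNA* sequences recorded at miR169-20nt locus 5 and miR171-multi locus 3 run 1 or 2 bases past the deposited hairpin and are not drawn.

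The 15 member hairpins had a median length of 125 nt and a median folding energy of -51.7 kcal/mol per 100 nt, against -51.7 for 78 other conserved hairpins and -39.8 for 846 predicted ones. miR169 hairpins were longer (median 139.5 nt, n = 8) than the hairpins of miR171-multi and miR171-single (median 102.5 nt, n = 6). The mir479mir171 hairpin, 82 nt, is not in that median. A miRNA* was recorded at 9 of the 15 loci in at least 1 library (60%), 69.2% of the other conserved loci and 13.6% of the predicted loci. The loci of one sequence share reads, so these are descriptions.

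Among sequences without a miRBase ID, 2 shared a seed with a member, and both were listed in root only. A 22-nt sequence at chr7:15636749-15636770 on the minus strand had the seed of mir479mir171 and differed from it as A9G and C21T, with positions counted from the 5′ end of mir479mir171. It had 25 reads in TR (2.06 RPM) and 3 in CR (0.436 RPM), a ratio of 4.73 (1.44 to 24.5) that met the call rule and was 5.89 to 7.89 under the other scalings. It had 3 miRNA* reads in TR and 1 in CR. So in CR, where mir479mir171 had 32 reads, this sequence had 3, and in TR, where it had 25, mir479mir171 was not listed. A 21-nt sequence at chr6:25891201-25891221 on the plus strand differed from miR171-single as T11C and had 7 reads in TR (0.577 RPM). Both held the blocks shared by the miR171 members, in capitals here, and the hairpins of mir479mir171 and its chromosome 7 relative follow with mature and recorded miRNA* in capitals.
chr7 sequence: TGAGCCGagcCAATATCacttc
chr6 sequence: tTGAGCCGcgcCAATATCtct
mir479mir171 hairpin: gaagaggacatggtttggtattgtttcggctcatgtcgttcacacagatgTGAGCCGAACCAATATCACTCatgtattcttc
chr7 hairpin: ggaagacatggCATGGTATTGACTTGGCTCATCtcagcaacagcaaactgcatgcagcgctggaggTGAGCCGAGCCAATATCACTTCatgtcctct

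Other miRNA families that target transcription factors were counted over a list of 11: miR156, miR529 and miR535 (SPL factors), miR159 (MYB), miR319 (TCP), miR160 and miR167 (auxin response factors), miR164 (NAC), miR166 (HD-ZIP III), miR172 (AP2) and miR396 (growth-regulating factors). In shoot, 8 of their 18 shared sequences were called higher in TS and 3 lower, with a median log2 ratio of 0.76 beside 0.43 over all 96. By the same rule 22 of all 96 (22.9%) were called higher and 7 lower. Of the 32 conserved ones, 15 (46.9%) were called higher and 4 lower, with a median of 0.96, so the families were near the conserved share. The conserved counts include these families and the members. In root, 0 of 17 were called higher in TR and 2 lower, with a median of -0.61 beside -0.32 over all 46. Of all 46, 5 (10.9%) were called higher and 6 lower, and of the 24 conserved ones 2 (8.33%) higher and 2 lower. Beside those lists the miR169 and miR171 members had 4 of 4 called higher in shoot, and 1 of 2 in root.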

How the data were processed

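Small RNA libraries of shoot and root, with and without NaCl, were sequenced single-end by the authors, 1 library per group. Per the methods and labels, reads were trimmed with cutadapt and the UEA Small-RNA Workbench, other non-coding RNAs were removed, known miRNAs were taken from miRBase, and sequences were mapped to the rice genome (IRGSP-1.0 in the file headers). The study folded newly predicted precursors with mFold; the program that picked hairpins for these lists is not given in the sources used here. As deposited, lists hold whole-number read counts per mature sequence, RPM relative to the reads the authors used for miRNA prediction, log2 RPM, the GC percent of each hairpin, a hairpin p-value from the authors' folding test, and folding energy. Log2 RPM and hairpin p-values were not used. Hairpin starts and ends are deposited 1 base below the mature coordinates, in all 48 member entries. Blank lines (3 to 5 per list) were skipped.

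RPM ratios were computed from counts with exact conditional intervals, ratios of ratios and odds ratios with Fisher's conditional intervals, and shares with exact binomial (Clopper-Pearson) intervals (95%; scipy 1.17.1, Python 3.11.15). A ratio of 2 or 0.5 with an interval excluding 1 was a call. No p-value was computed. The intervals were tested on simulated counts with Poisson error only, the error they assume. That test could not show how they hold under PCR, library or biological variation. Alternatives were 6 library scalings (TMM from edgeR 4.0.16 in R 4.3.3), a 1.5-fold rule, a minimum of 10 reads, family sums, and miRNA* summed over loci or kept to loci that TS and CS, or TR and CR, both list (the last chosen after seeing the data). Totals of raw, trimmed and NONCODE-unaligned reads were taken from the study. Every member sequence and hairpin locus was named, with the sequences of the miRNA* and hairpins that the results turn on; other entries were named where they share bases 2 to 8 with a member, and 1 further sequence was chosen after its values were seen. The members and the list of families were chosen with earlier results of these data known.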

Additional observations from a re-analysis of the deposited data

Results flagged for a closer look

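The NaCl-to-control ratio differed between tissues by the exact interval of the ratio of ratios for 2 sequences, at 7.70 for miR169-20nt and 2.39 for miR171-multi, each shoot over root. The value for miR171-multi held only where libraries were scaled to the reads used for prediction or to the listed reads.

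Further sequences without a miRBase ID lie close to members. The chromosome 7 sequence with the seed of mir479mir171 had 25 reads in TR, above the 3 in CR. The chromosome 6 sequence with the seed of miR171-single had 7 reads in TR and was not listed in CR. A sequence at chr2:31205966-31205986, chosen after its values were seen, holds the last 20 bases of miR169-21nt, starts 1 base later, and had 4 reads in TS and no listing in CS or in root.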

How the results depend on the processing

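Of 128 alternative values for 26 results, 111 were unchanged by the criteria used: the same direction and side of the threshold for a ratio, within 1.5 times for a count of calls, and within the counting interval for a share. Some of the 111 could not change. The miRNA* share of miR171-single comes from 1 locus, and miR169-20nt was the only miR169 sequence listed in root, so its family sum there was the same value. The NaCl ratio of miR169-21nt in shoot, 3.69 on the deposited RPM, lost its call with raw reads (3.06), trimmed reads (3.12), the median of ratios (2.75) and TMM factors (2.58). The count of members called in shoot was then 3 in place of 4, as it was with at least 10 reads required in both libraries. In CS over CR, miR171-multi gained a call with raw reads (2.61), trimmed reads (2.43) and reads unaligned with NONCODE (2.40), which made 2 called members in place of 1 under each of these. Its ratio of ratios, shoot over root, no longer excluded 1 with raw reads (1.19), trimmed reads (1.24) and reads unaligned with NONCODE (1.40). Summing the listed reads of the miR171 family turned the root NaCl ratio to 0.70 and the CS over CR ratio to 0.63. In these sums an unlisted sequence added no reads, and relatives without a miRBase ID were left out. Summing miRNA* over loci moved the miR169-20nt share to 38.4% in TS and 54.8% in CS. Other causes of these shifts were not tested. Leaving out a replicate was not possible with 1 library per group, and the lowest member counts, 4 and 11 reads, limit miR169-21nt most.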
